A study of Homo sapiens with 6 samples.

Results

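Laminin chains are the subunits of the laminins, the cross-shaped glycoproteins of the basement membrane on which epithelial cells sit. The 6 chain genes described here are LAMA3 and LAMA5 (alpha chains), LAMB1, LAMB2 and LAMB3 (beta chains) and LAMC1 (the gamma1 chain). They were chosen by gene symbol, and all rows of the deposited transcript table that GENCODE v29 assigns to these symbols were taken, which gave 60 of 98886 transcripts and 6 of 18750 genes. HCT116, an established human colorectal cancer line, received either an siRNA against the long non-coding RNA AC010789.1 (group si-AC010789.1) or a control siRNA (group siRNA-NC), in the same medium and by the same transfection method. There were 3 libraries per group, which the study calls biological repeats, and the total count per library lay between 11277222 and 13443866. Levels are given in CPM, which are counts brought to a common library size with TMM factors, and 3 counts equal 0.223 to 0.266 CPM at these depths. The study reports that it verified the knockdown in its sequenced samples. The level of AC010789.1 was not analysed here, and so it gives no check of the group labels.

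Each laminin molecule is a heterotrimer of 1 alpha, 1 beta and 1 gamma chain, joined along a coiled coil and named by the numbers of its chains. The alpha chain carries the domain that integrins and dystroglycan bind, and the short arms of the chains let laminins join into a sheet. Laminin-332, which holds the alpha3 and beta3 chains from LAMA3 and LAMB3, anchors epithelia through hemidesmosomes, and laminin-511 and laminin-521 (alpha5 with beta1 or beta2, and gamma1, from LAMA5, LAMB1 or LAMB2, and LAMC1) are the main laminins of many mature epithelial basement membranes, the intestinal one included. The comparison asked whether the RNA of these chains differed between si-AC010789.1 and siRNA-NC.

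Gene sums of 5 of the 6 chains overlapped between the groups, and LAMB2 was the exception, lower in every si-AC010789.1 library than in any siRNA-NC library. None of the 6 had an adjusted p-value under 0.05 in edgeR's quasi-likelihood test, which called 135 of 13750 genes (0.982%). By unadjusted p-value 1 of the 6 chains (LAMB2) was under 0.05, as were 17.2% of all genes, and with DESeq2 the same chain had an adjusted p-value under 0.05, as had 3.78% of all genes. The study's criteria (unadjusted p under 0.05 and a log2 fold change above 1 in size) were met by 0 of the 6 and by 0.778% of all genes. Groups lay apart for 25.1% of all genes, and for 12.9% in the direction of LAMB2. Of the 6 log2 fold changes 3 were above 0, with a median of 0.014, where the median over all genes tested was -0.00066. In HCT116 cells measured in bulk, fewer cells that express a chain and less RNA per cell cannot be told apart.

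**Figure D1:**
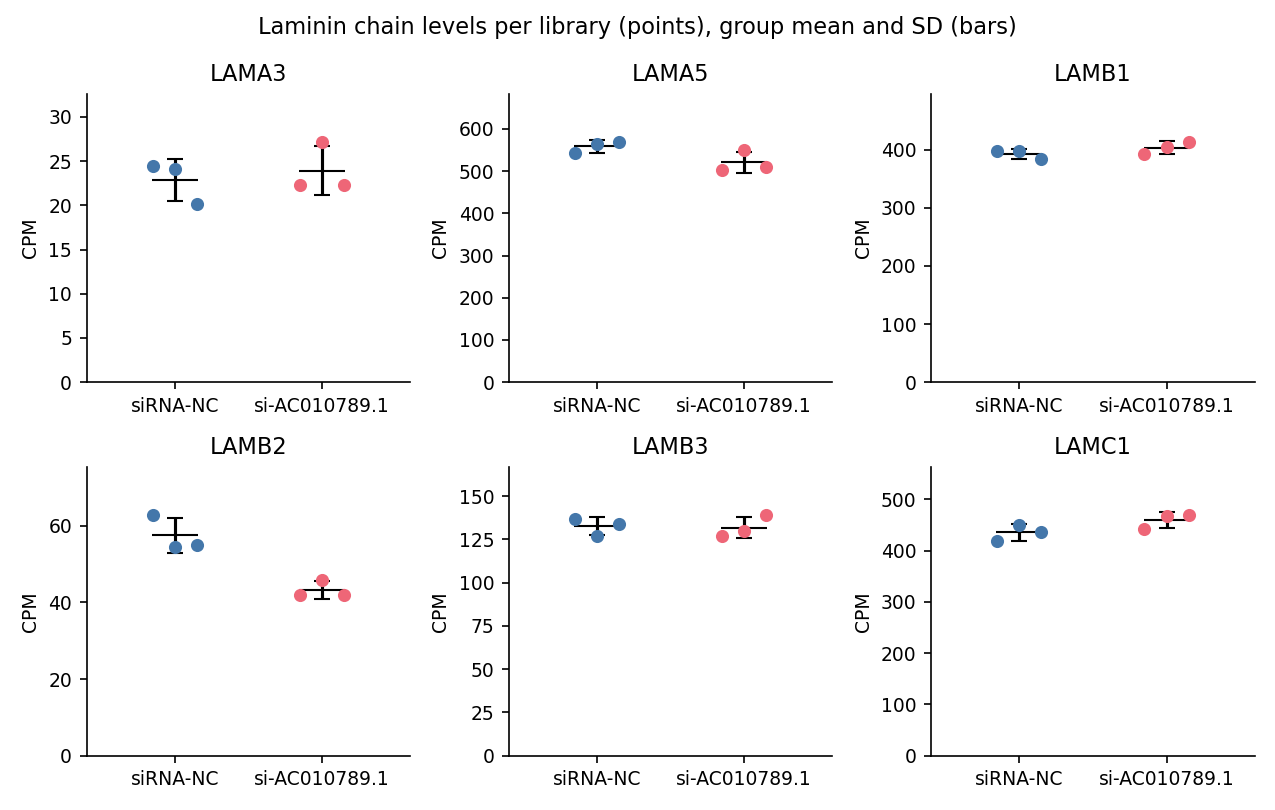
Level of each laminin chain gene in CPM (y axis from 0, a separate scale per gene) in the 3 siRNA-NC libraries (blue) and the 3 si-AC010789.1 libraries (red), with the group mean and SD in black. The LAMB2 values of the groups are apart (54.6 to 62.8 against 41.9 to 45.9 CPM), and those of the other chains overlap.

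The alpha5 chain, common to laminin-511 and laminin-521, comes from LAMA5 (ENSG00000130702.15, chr20:62307955-62367312, minus strand, GRCh38). It had 6115, 7485 and 7597 counts in replicates 1, 2 and 3 of siRNA-NC, against 5755, 6874 and 6315 in those of si-AC010789.1, which is 542 to 570 CPM against 503 to 549 CPM. The groups overlapped because si-AC010789.1 replicate 2 lay above siRNA-NC replicate 1. The means were 559 ± 14.8 and 521 ± 24.7 CPM (SD, n = 3 each), and the log2 fold change was -0.10 (standard error 0.049, 95% interval from -0.22 to 0.016, edgeR adjusted p = 0.354).

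The alpha3 chain of laminin-332 comes from LAMA3 (ENSG00000053747.16, chr18:23689443-23956222, plus strand), which had the fewest counts of the 6 chains. Its level was 24.4, 24.1 and 20.2 CPM in the siRNA-NC libraries and 22.3, 27.2 and 22.3 CPM in the si-AC010789.1 libraries. The highest value came from si-AC010789.1 replicate 2 and the lowest from siRNA-NC replicate 3, and all others lay between them. The log2 fold change was 0.066 (standard error 0.12, 95% interval from -0.23 to 0.36, edgeR adjusted p = 0.828), and it turned to -0.032 without si-AC010789.1 replicate 2 and to -0.018 without siRNA-NC replicate 3.

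Among the beta chains, LAMB1 (ENSG00000091136.13, chr7:107923799-108003255, minus strand) codes for the beta1 chain of laminin-511 and had 398, 398 and 384 CPM in siRNA-NC against 392, 405 and 414 CPM in si-AC010789.1. The spread within each group was small, 393 ± 8.41 against 404 ± 11.3 CPM (SD, n = 3 each), and the groups overlapped. The log2 fold change of LAMB1 was 0.037 (standard error 0.041, 95% interval from -0.061 to 0.14, edgeR adjusted p = 0.698).

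LAMB2 (ENSG00000172037.13, chr3:49121114-49133118, minus strand) codes for beta2, the chain that takes the place of beta1 in laminin-521. Its counts were 709, 724 and 734 in siRNA-NC against 480, 574 and 517 in si-AC010789.1, and its level was 62.8, 54.6 and 55.1 CPM against 41.9, 45.9 and 41.9 CPM. All si-AC010789.1 libraries were below all siRNA-NC libraries. The means were 57.5 ± 4.63 and 43.2 ± 2.29 CPM (SD, n = 3 each), a ratio of 0.752. The log2 fold change was -0.41 (standard error 0.084, 95% interval from -0.61 to -0.21), with an unadjusted p of 0.00213 and an adjusted p of 0.0881 from edgeR. DESeq2 gave an adjusted p of 0.0110 for the same difference. By an exact two-sided permutation test over the 6 libraries p was 0.1, the smallest value that 3 against 3 allows.

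LAMB3 (ENSG00000196878.14, chr1:209614870-209652466, minus strand) codes for beta3, which occurs in laminin-332. It had 137, 127 and 134 CPM in siRNA-NC against 127, 130 and 139 CPM in si-AC010789.1, so that both groups spanned nearly the same range. The log2 fold change of LAMB3 was -0.0095 (standard error 0.056, 95% interval from -0.14 to 0.12, edgeR adjusted p = 0.951). Its sign turned without siRNA-NC replicate 1, without si-AC010789.1 replicate 1 or 2, and with upper quartile factors, with values from 0.0049 to 0.016.

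The gamma1 chain, the most widely shared laminin subunit, comes from LAMC1 (ENSG00000135862.5, chr1:183023460-183145592, plus strand). LAMC1 had 419, 450 and 437 CPM in siRNA-NC against 441, 467 and 469 CPM in si-AC010789.1. Of the si-AC010789.1 libraries, replicate 1 lay within the range of siRNA-NC and the others above it. The means were 435 ± 16.0 and 459 ± 16.0 CPM (SD, n = 3 each), and the log2 fold change was 0.077 (standard error 0.047, 95% interval from -0.037 to 0.19, edgeR adjusted p = 0.464).

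**Figure D2:**
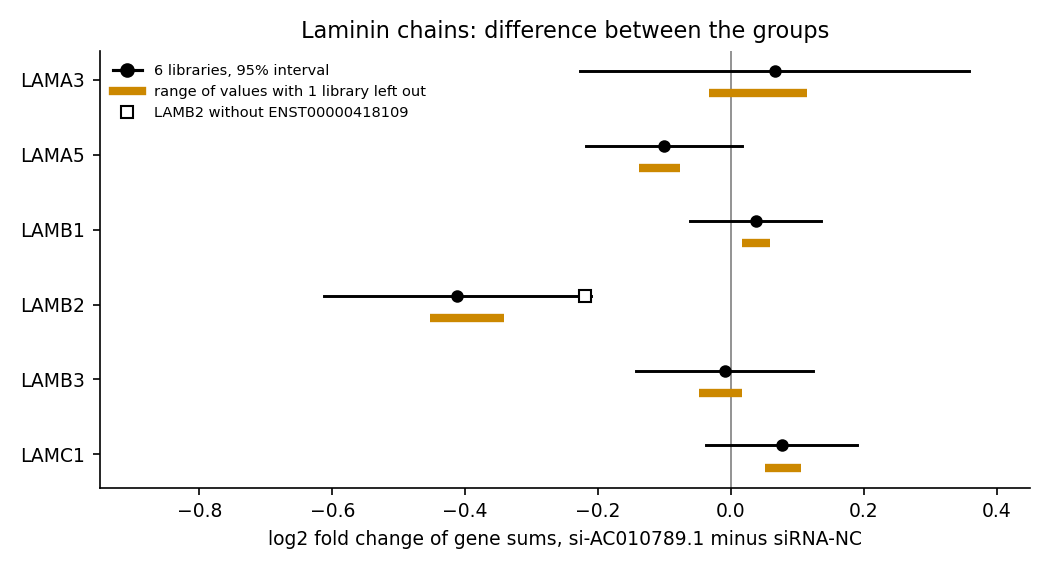
Difference between the groups as the log2 fold change of gene sums (x axis), with 1 row per chain. Black points and lines give the fit to 6 libraries with its 95% interval, and orange bars the range over fits with 1 library left out. The open square gives LAMB2 without ENST00000418109, its transcript that fell most. The interval of LAMB2 lies between -0.61 and -0.21, the other 5 intervals hold 0, and the square stands at -0.22.

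Single transcripts showed where the LAMB2 counts lay. LAMB2 had 18 transcripts in the table, of which 3 are annotated as protein-coding and 14 as retained introns. ENST00000305544, the most abundant, had 523, 529 and 441 counts in siRNA-NC against 369, 441 and 392 in si-AC010789.1, which overlapped. ENST00000418109, with an identical coding sequence of 5394 bases, had 45, 90 and 167 counts in siRNA-NC against 2, 17 and 1 in si-AC010789.1. These groups were apart, with a log2 fold change of -3.84 (standard error 1.13). The transcript also varied widely within siRNA-NC, and its adjusted p was 0.735 with edgeR and 0.0331 with DESeq2. It passed the filter on low counts only through the siRNA-NC libraries, where it was high, so these values are no support for a fall.

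Without ENST00000418109, the remaining LAMB2 level was 58.9, 47.8 and 42.5 CPM in siRNA-NC against 41.8, 44.5 and 41.8 CPM in si-AC010789.1. The groups then overlapped, since siRNA-NC replicate 3 fell below si-AC010789.1 replicate 2. The log2 fold change became -0.22 (standard error 0.12, edgeR adjusted p = 0.427), an alternative added after the values were seen. ENST00000418109 was left out because it fell most, so that a smaller difference followed from the choice. The summed level of ENST00000305544 and ENST00000418109 was 50.3, 46.7 and 45.6 CPM in siRNA-NC. In si-AC010789.1 it was 32.4, 36.6 and 31.8 CPM, without overlap, as for the gene sum. ENST00000305544 (5643 exonic bases) and ENST00000418109 (5674 exonic bases) share 5557 bases, and how the counting divided shared reads is not given in the sources used here. Protein-coding transcripts of LAMB2 together stood at 47.5 ± 2.48 CPM in siRNA-NC against 33.8 ± 2.48 CPM, and its other transcripts at 9.96 ± 2.33 against 9.41 ± 0.578 CPM (SD, n = 3 each). The protein-coding share of LAMB2 counts was 82.8 ± 2.69% in siRNA-NC against 78.2 ± 1.95% in si-AC010789.1, without overlap (exact permutation p = 0.1, the smallest possible, not adjusted over the chains). This share includes the counts of ENST00000418109 and so is not a separate result. In every other chain the protein-coding share overlapped between the groups, and it was not computed over all genes.

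In LAMB1 the gene sum was even across libraries and the transcripts were not. The counts of LAMB1 lay mainly in ENST00000222399 (34 exons, 5358 coding bases) and ENST00000393561 (32 exons, 5430 coding bases), which held 86.1% of them. They start 1228 bases apart, and their coding sequences differ at the 5′ end and share 5321 bases. The sequences at the point where they join are shown because these bases are among the few by which the transcripts can be told apart. The 15 bases in capitals are the first that both share, on the minus strand of GRCh38 from chr7:108001733 downwards, and the 15 in lower case belong to 1 transcript each, from the GENCODE v29 transcript sequences. All 30 bases of each are coding.
LAMB1 ENST00000222399, end of exon 2 and start of exon 3: ctttcagtttcttagCCCTGTGCAGAGCCC
LAMB1 ENST00000393561, within exon 1: ctgtccttcccgcagCCCTGTGCAGAGCCC

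ENST00000222399 had 3169, 3378 and 3388 counts in siRNA-NC against 385, 1310 and 3174 in si-AC010789.1. ENST00000393561 had 1028, 915 and 806 counts in siRNA-NC against 3603, 2968 and 1330 in si-AC010789.1. In the first transcript si-AC010789.1 replicates 1 and 2 were low and replicate 3 was near the siRNA-NC libraries, and in the second all si-AC010789.1 libraries were above all siRNA-NC libraries. The log2 fold changes were -1.01 (edgeR adjusted p = 0.952) and 1.57 (edgeR adjusted p = 0.638). The first was -0.55 without si-AC010789.1 replicate 1 and -1.94 without si-AC010789.1 replicate 3. As a share of the counts of both, ENST00000393561 took 24.5%, 21.3% and 19.2% in siRNA-NC against 90.3%, 69.4% and 29.5% in si-AC010789.1, 21.7 ± 2.66% against 63.1 ± 30.9% (SD, n = 3 each). The difference of 41.4 percentage points had an exact permutation p of 0.1, the smallest possible, and 0.15 after adjustment over 3 pairs of transcripts.

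This pair was singled out after its values were seen. The 2 transcripts share 5457 exonic bases, of 5725 in ENST00000222399 and 5766 in ENST00000393561. How the counting divided these shared reads is not given in the sources used here, and the shares depend on it. Groups of the share of the second most abundant protein-coding transcript lay apart in 10.4% of 7140 genes with at least 2 such transcripts of 1 CPM. The share spanned 71.1 percentage points in LAMB1 over the 6 libraries, more than in 80.5% of those genes, whose median span was 34.7 points. The summed level of the pair was 372, 324 and 315 CPM in siRNA-NC against 348, 342 and 365 CPM in si-AC010789.1, which overlapped. Among the shorter LAMB1 transcripts, ENST00000474380 was at 0 in siRNA-NC replicate 1 and at 345 and 390 counts in replicates 2 and 3, against 77, 342 and 318 in si-AC010789.1.

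In LAMB3 the counts assigned to a pair of transcripts also varied between libraries, but not by group. ENST00000356082 and ENST00000391911 have the same coding sequence of 3516 bases, share 3952 exonic bases and held 99% of the LAMB3 counts. Their shares too depend on how the counting divided shared reads, which is not given. ENST00000391911 took 44.0%, 58.5% and 29.8% of the pair in siRNA-NC against 23.5%, 17.8% and 71.4% in si-AC010789.1. Its highest and its lowest share were both in the si-AC010789.1 group (exact permutation p = 0.8). For LAMB2 the share of ENST00000418109 in its pair was 7.92%, 14.5% and 27.5% in siRNA-NC against 0.539%, 3.71% and 0.254% in si-AC010789.1 (difference -15.1 percentage points, exact permutation p = 0.1, or 0.15 adjusted over the 3 pairs). That difference was -9.73 points without siRNA-NC replicate 3. The LAMB2 share spanned 27.2 points over the 6 libraries, more than in 41.1% of the 7140 genes and below their median span of 34.7 points.

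**Figure D3:**
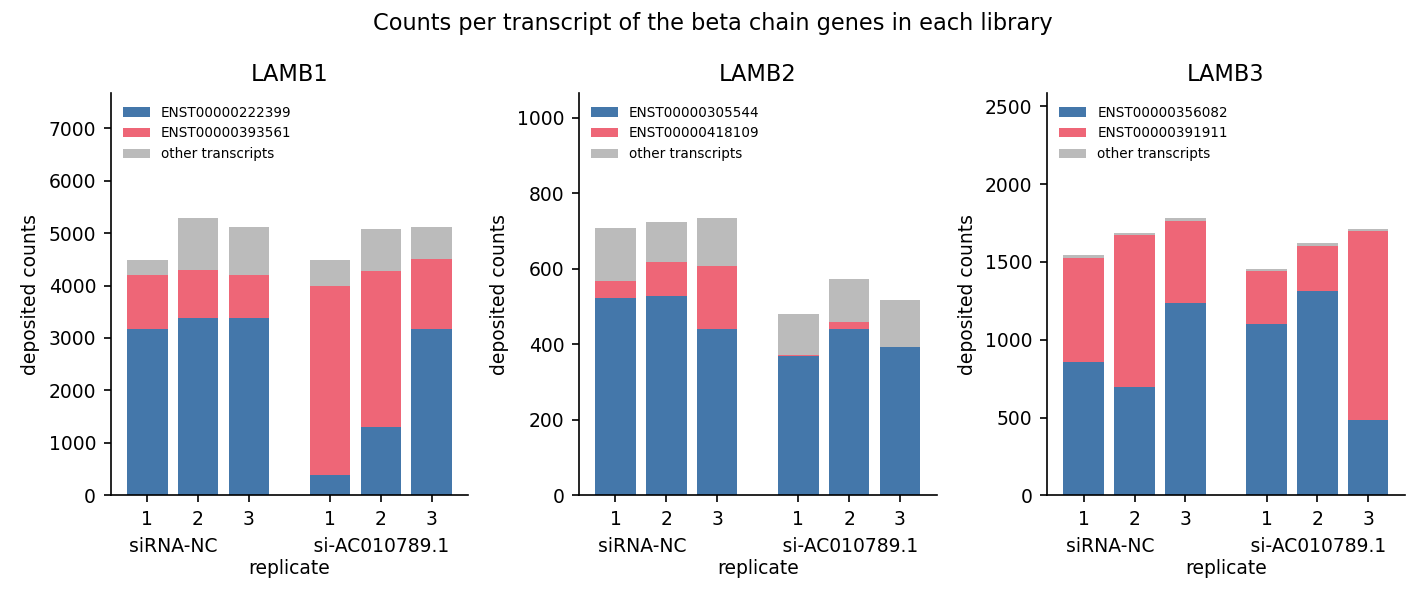
Deposited counts (y axis from 0) of the beta chain genes in each library (x axis, replicates 1 to 3 of both groups), stacked by transcript, with the 2 main transcripts in blue and red and all others in grey. The LAMB1 columns are of similar height, while the red part spans 806 to 3603 counts. The LAMB2 red part holds 45 to 167 counts in siRNA-NC against 1 to 17 in si-AC010789.1, and in LAMB3 it is highest in si-AC010789.1 replicate 3.

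LAMA3 has a long and a short form from separate promoters, which give the alpha3B and alpha3A chains. The short form lacks most of the amino-terminal short arm. The long form ENST00000313654 (75 exons, 9999 coding bases) and the short form ENST00000269217 (38 exons, 5172 coding bases) start 183397 bases apart and share 5001 coding bases. The point where they join is shown because it separates the forms. Capitals mark the first 15 bases that both share, from chr18:23876294 on the plus strand of GRCh38, and all bases shown are coding (GENCODE v29).
LAMA3 ENST00000313654, end of exon 38 and start of exon 39: ggtgactcttgtcagGGTTGTAGCCCTGGA
LAMA3 ENST00000269217, end of exon 1 and start of exon 2: tttagacccagccagGGTTGTAGCCCTGGA

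The long form had 270, 311 and 254 counts in siRNA-NC against 237, 280 and 271 in si-AC010789.1, and the short form 0, 0 and 2 against 0, 55 and 0. The 55 counts of the short form in si-AC010789.1 replicate 2 thus stood alone. The long form held 98.2%, 97.5% and 94.4% of LAMA3 counts in siRNA-NC against 92.9%, 82.4% and 98.2% in si-AC010789.1. The rest is not the short form alone. In si-AC010789.1 replicate 1 the short form had 0 counts, and 13 of the 18 counts outside the long form lay in another transcript of 554 bases. The value of 82.4% has a 95% Clopper-Pearson interval from 77.9% to 86.3%, which covers counting error only. The long and short forms share 5295 exonic bases, of 5671 in the short form. How the counting divided these shared reads is not given, the shares depend on it, and the interval does not cover it. The group means were 96.7 ± 2.0% and 91.2 ± 8.07% (SD, n = 3 each; exact permutation p = 0.4), and the difference of -5.54 percentage points was -1.13 without si-AC010789.1 replicate 2.

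LAMA5 and LAMC1 were each carried by 1 transcript. ENST00000252999 held 95.2% of the LAMA5 counts, with 5786, 7163 and 7202 in siRNA-NC against 5500, 6566 and 6014 in si-AC010789.1. ENST00000258341 held 99.5% of the LAMC1 counts, with 4703, 5950 and 5794 in siRNA-NC against 5023, 5833 and 5739 in si-AC010789.1. Neither transcript separated the groups.

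Over all 6 genes, 29 transcripts passed the filter on low counts, and edgeR called none, where it called 6 of 44319 transcripts (0.0135%). Of the 29, 9 were higher in si-AC010789.1. Transcripts of a gene share reads, and the share of higher ones over all transcripts was not computed, so this count gives no direction for the chains. DESeq2 called 1 of the 29, ENST00000418109 of LAMB2, and 1.52% of all transcripts. An unadjusted p under 0.05 was found for 4 of the 29 and for 5.73% of all transcripts. These 4 also met the study's criteria, which add a log2 fold change above 1 in size, as did 3.5% of all transcripts, and their groups lay apart, as in 14% of all transcripts. They were ENST00000393561 of LAMB1, ENST00000418109 of LAMB2, ENST00000468518 of LAMB1 with 25, 16 and 12 against 6, 7 and 10 counts, and the non-coding processed transcript ENST00000492698 of LAMA5 with 19, 17 and 16 against 5, 10 and 5 counts. The last was named after its values were seen. ENST00000418109, ENST00000468518 and ENST00000492698 passed the filter on low counts only through the siRNA-NC libraries, where they were high. The filter thus favoured a fall in them, so their p-values and separate groups are no support for one. The fitted spread between replicates (biological coefficient of variation) was 0.698 for transcripts and 0.170 for genes.

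Levels of different chains were compared per length, as counts per kilobase of each transcript, summed per gene and scaled to the same total in every library. The order was the same in every library, with LAMB1 highest, then LAMA5, LAMC1, LAMB3, LAMB2 and LAMA3, and the ranges of neighbours did not overlap. LAMB1 had a mean of 214 in siRNA-NC against 216 in si-AC010789.1, LAMA5 164 and 150, and LAMC1 111 and 119. The laminin-332 chains were lower, at 63.9 in both groups for LAMB3 and at 6.19 and 7.09 for LAMA3. On this scale LAMB2 stood at 40.4 ± 5.34 and 35.4 ± 2.16 (SD, n = 3 each) and overlapped between the groups, while LAMA5 did not overlap (163 to 166 against 140 to 161). Both statements depend on the length used. With the length of the longest protein-coding transcript for each gene, LAMB2 stood at 28.1 against 21.1 and its groups were apart, and LAMA5 at 135 against 126 with groups that overlapped. With protein-coding transcripts only, LAMB2 stood at 22.5 against 16.9, again apart, and LAMA5 at 128 against 121, again overlapping. The mean of LAMB2 over all libraries was 37.9 with every transcript, 24.6 with 1 length per gene and 19.7 with protein-coding transcripts only. Short transcripts weigh more per length: with the length of the longest protein-coding transcript for each gene, LAMC1 (153 in siRNA-NC) passed LAMA5 (135) in the means, and the other chains kept their places.

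**Figure D4:**
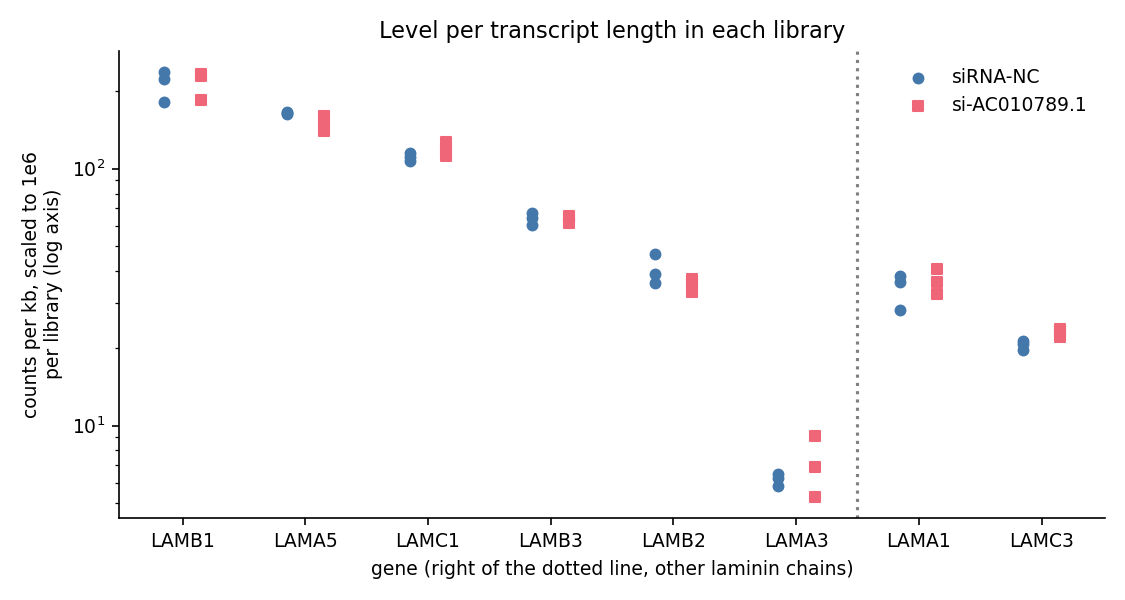
Level as counts per kilobase of transcript, scaled to the same total in every library (y axis, log scale), of the 6 chains and of 2 other laminin chains (x axis) in siRNA-NC (blue circles) and si-AC010789.1 (red squares), with 1 point per library. LAMB1 is highest and LAMA3 lowest of the 6, and LAMA1 and LAMC3 lie above LAMA3.

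Ratios between chains that share a heterotrimer, and between chains that replace each other in one, were taken within each library, so that the scaling of libraries drops out. Of 6 pairs compared, 3 had groups that did not overlap, and 2 of these hold LAMB2, whose own groups lay apart. For single genes, not ratios, the share with groups apart was 25.1%. The log2 ratio of LAMA5 to LAMC1 in CPM was 0.37, 0.33 and 0.38 in siRNA-NC against 0.19, 0.23 and 0.12 in si-AC010789.1, a difference of -0.18. LAMB2 to LAMC1 differed by -0.49, from -2.92 ± 0.16 to -3.41 ± 0.070, and LAMB1 to LAMB2 by 0.45, from 2.78 ± 0.10 to 3.22 ± 0.081 (SD, n = 3 each). For these 3 the exact permutation p was 0.1, the smallest possible, and 0.2 adjusted over the 6 pairs. The ratio of LAMB1 to LAMC1 differed by -0.040 (exact permutation p = 0.5), that of LAMA3 to LAMB3, the laminin-332 pair, by 0.074 (exact permutation p = 0.7), and that of LAMA3 to LAMA5 by 0.17 (exact permutation p = 0.3). The last was 0.064 without siRNA-NC replicate 3, and the LAMB1 to LAMC1 difference was -0.0034 without siRNA-NC replicate 1. Without si-AC010789.1 replicate 2 or siRNA-NC replicate 3 the LAMA3 to LAMB3 difference turned to -0.032 or -0.019.

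**Figure D5:**
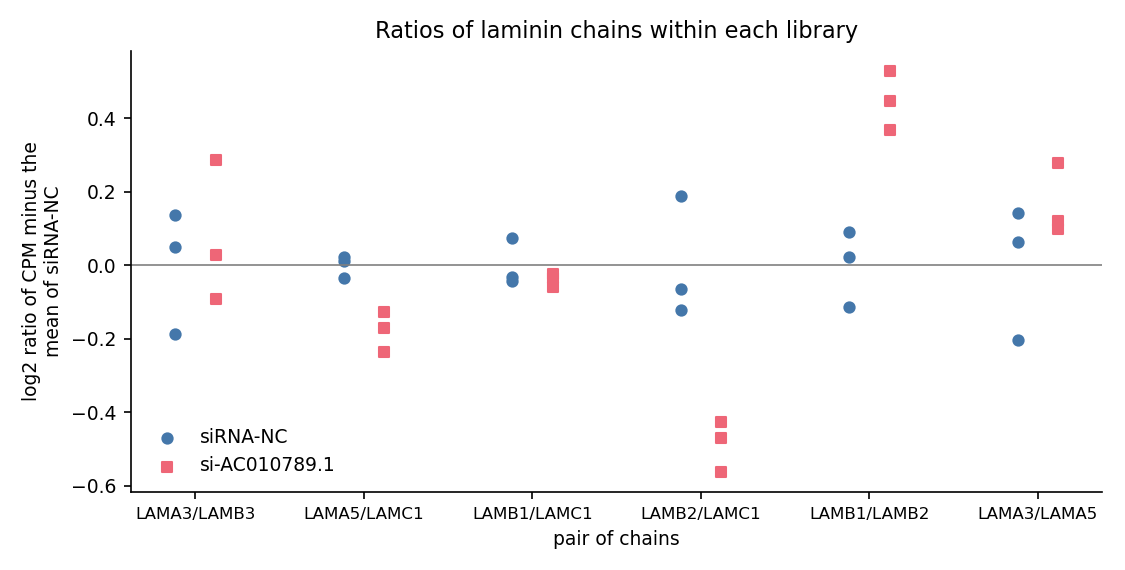
The log2 ratio of CPM of 6 pairs of laminin chains in each library, minus the mean of the siRNA-NC libraries for that pair (y axis), in siRNA-NC (blue circles) and si-AC010789.1 (red squares). The groups are apart for LAMA5/LAMC1, LAMB2/LAMC1 and LAMB1/LAMB2, with differences of -0.18, -0.49 and 0.45.

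Of 5 other chains of the family 2 were tested and 0 were called by edgeR, with 2 at an unadjusted p under 0.05 (17.2% of all genes) and 0 called by DESeq2 (3.78% of all genes). LAMA1, the alpha1 chain, had 125 ± 9.73 and 143 ± 6.04 CPM, and LAMC3, the gamma3 chain, 63.6 ± 2.19 and 70.5 ± 2.73 CPM (SD, n = 3 each). In both the groups lay apart, as for 25.1% of all genes (LAMC3 was named after its values were seen), with log2 fold changes of 0.19 (edgeR adjusted p = 0.249) and 0.15 (edgeR adjusted p = 0.288). LAMA2 had between 2 and 11 counts and LAMA4 between 0 and 2, both under the filter, and LAMB4 was not analysed here.

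The counts of the following lists stand against 17.2% of all genes at an unadjusted p under 0.05 and 3.78% called by DESeq2. Of 11 laminin receptors 10 were tested, with 3 at an unadjusted p under 0.05, 1 called higher by edgeR, 1 called by DESeq2 and a median log2 fold change of -0.051. The gene called by edgeR was SDC1 (syndecan-1, a heparan sulphate proteoglycan), with a log2 fold change of 1.36 (standard error 0.13, edgeR adjusted p = 0.0157). The SDC1 call held without si-AC010789.1 replicate 2 but was lost when any other library was left out. It was also lost with the replicate number as a block. Of 12 genes that glycosylate dystroglycan, on which laminin binding rests, 10 were tested, with 4 at an unadjusted p under 0.05, 1 called by DESeq2 and a median of 0.16. B4GAT1, which primes the laminin-binding glycan, was called lower, from 31.7 ± 2.52 to 17.1 ± 2.60 CPM (SD, n = 3 each; log2 fold change -0.89, edgeR adjusted p = 0.0437), a call that was lost whichever library was left out, without the filter on low counts, with protein-coding transcripts only and with the replicate number as a block. DAG1, dystroglycan itself, ranged from 671 to 8152 counts over the libraries (427 ± 319 against 436 ± 318 CPM; log2 fold change 0.029, edgeR adjusted p = 0.991), and it was named after its values were seen.

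Among 17 basement membrane partners 15 were tested and 0 called in either direction by edgeR, with 6 at an unadjusted p under 0.05, 2 called by DESeq2 and a median of -0.042. The 2 were the type IV collagen chains COL4A1 (284 ± 20.1 against 342 ± 13.6 CPM) and COL4A5 (186 ± 16.9 against 152 ± 1.42 CPM; SD, n = 3 each), named after their values were seen. The largest difference was in COL4A3, a type IV collagen chain (33.7 ± 3.90 against 26.4 ± 2.07 CPM, log2 fold change -0.35, edgeR adjusted p = 0.195). Of 8 laminin-cleaving proteases 3 were tested and 0 called, with 0 at an unadjusted p under 0.05 and 0 called by DESeq2; PLAU, the urokinase plasminogen activator, differed most (log2 fold change 0.33, edgeR adjusted p = 0.579). Of 6 netrins and related proteins with laminin-type domains 2 were tested and 0 called, with 1 at an unadjusted p under 0.05 and 0 called by DESeq2; this was NTN1 (log2 fold change 0.53, edgeR adjusted p = 0.262). The edgeR calls of all genes in these directions were 0.284% higher and 0.698% lower.

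The labelled cell type was checked against its markers. KRT8 and KRT18, keratins of simple epithelia, averaged 626 and 407 CPM, EPCAM 4.29 and CDH17 0.0541 CPM, the last below the level of 3 counts, and the other 6 of 10 colorectal epithelial markers were not analysed here. Of the 4 analysed, 3 reached 1 CPM. The sums given here cover the markers analysed and no others. For colorectal epithelium the summed level was between 985 and 1229 CPM in siRNA-NC and between 801 and 1041 CPM in si-AC010789.1. Nearly all of it came from KRT8 and KRT18, while EPCAM and CDH17 were low. The sum therefore does not tell colorectal from other simple epithelia. Fibroblast markers, of which 4 of 7 were analysed and all 4 reached 1 CPM, summed to between 59.7 and 69.3 CPM in siRNA-NC and to between 63.8 and 68.6 CPM in si-AC010789.1, with COL1A1 at 43.9 CPM. Endothelial (1 of the 2 analysed at 1 CPM), smooth muscle (1 of 2), squamous or basal (1 of 2) and blood markers (0 of 1) summed to at most 2.51, 3.37, 4.83 and 0.754 CPM. The part of other cells in the laminin levels was not tested.

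MiR-432-3p, the microRNA that the study places downstream of AC010789.1, binds its targets through a seed of bases 2 to 8, in capitals here (mature sequence from RefSeq). It is shown because the members were searched for matches to it.
hsa-miR-432-3p: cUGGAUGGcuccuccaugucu

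The annotated 3′ UTRs of the tested genes were searched on the transcript strand. The 7-base match to bases 2 to 8 is CCATCCA. The 7-base match to bases 2 to 7 with a following A is CATCCAA. Both hold the 6-base match CATCCA, found in 35.4% of 12317 genes. A 7-base match occurred in 2366 of 12317 genes (19.2%), and in 2 of the 6 chains, LAMA3 and LAMC1. In LAMC1 it lies at base 561 of the 2802-base 3′ UTR of ENST00000258341, the transcript that held nearly all LAMC1 counts. In LAMA3 it lies in ENST00000592519 only, which is not among the counted transcripts. The longest 3′ UTRs of the others had 112 bases in LAMB2, 148 in LAMB1, 271 in LAMA5 and 401 in LAMB3, against a median of 1371 over all genes. Both sites are shown with 12 bases on each side, with CATCCA in capitals, on the plus strand of GRCh38.
LAMC1 ENST00000258341, chr1:183143339-183143368: aatgtcggtagcCATCCAtcagtgctttta
LAMA3 ENST00000592519, chr18:23834688-23834717: ctgcagtaaaccCATCCAgttcttggccat

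A match of this kind is a description of letters in the annotation, and the level of miR-432-3p was not analysed here.

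Some reads of the chains could belong to overlapping genes, since strand in the counting is not given in the sources used here. Exons of LAMA5 overlap those of ADRM1 and LAMA5-AS1 on the opposite strand, and exons of LAMB1 those of DLD. ADRM1 had a log2 fold change of 0.022 and DLD of 0.0015, and LAMA5-AS1 had 7 counts over all libraries. LAMB2 overlaps no other annotated gene.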

How the data were processed

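Total RNA of HCT116 cells was made into paired-end TruSeq libraries and sequenced on a NovaSeq. The authors deposited raw counts for single Ensembl transcripts in each library, and did not normalize them. The submitters' processing notes name CASAVA 1.8, TopHat2 2.0.6 and the builds GRCh38 and mm10 without roles. The counting program and its strand setting are not given in the sources used here. Of 98886 transcripts 98782 were matched to GENCODE v29 (GRCh38), and counts were summed per gene. Gene sums and transcripts were tested with edgeR 4.0.16 in R 4.3.3 (TMM, filterByExpr at its settings of 10 counts per library and 15 in total, quasi-likelihood test, Benjamini-Hochberg adjustment over all features tested). The study's Cuffdiff needs alignments and was not run. Libraries carry the numbers of the labels, and no batch is given there.

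On simulated counts of this comparison (13612 genes, 40545 transcripts), genes changed by a log2 fold change of 1 were called in 59% of cases and by 2 in 91%, and transcripts in 0% and 0%. The largest log2 fold change of a laminin chain gene was -0.41, in LAMB2. Changes of that size or smaller were not simulated, so these shares do not say how often they would be called. The members, gene lists and tests were chosen with earlier results of these data known. The transcripts named have a mean of at least 1 CPM or at least 10% of their gene's counts in a library, and of each list every gene called by edgeR and the one that differed most are named. Alternatives were DESeq2 1.42.0, other size factors, other filters, protein-coding transcripts only, a replicate block, and each library left out. Of the lists, 1 gene is not reported here.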

Additional observations from a re-analysis of the deposited data

How the results depend on the processing

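No laminin chain was called by edgeR under any other factors, filter, replicate block or left-out library, and DESeq2 called 1, LAMB2 (log2 fold change -0.41, adjusted p = 0.0110), and 1 transcript. With 1 library left out the log2 fold changes lay between -0.45 and -0.34 for LAMB2 (edgeR adjusted p from 0.168 to 0.220), -0.14 and -0.076 for LAMA5, 0.018 and 0.058 for LAMB1 and 0.051 and 0.11 for LAMC1. They changed sign for LAMA3 (-0.032 to 0.12) and LAMB3 (-0.048 to 0.016; 0.0081 with upper quartile factors), and so did the LAMA3 to LAMB3 ratio (-0.032 to 0.16), the LAMB3 transcripts ENST00000356082 (-0.13 to 0.44) and ENST00000391911 (-1.15 to 0.14) with the share of their pair (-23.4 to 3.37 percentage points), and the LAMA3 transcript ENST00000313654 (-0.14 to 0.0078); the cause was not tested. Of the 6 places in the order per length, 4 were kept with 1 length per gene and 4 with protein-coding transcripts only.

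Over all genes, 520 were called with DESeq2, 69 without a filter, 56 from protein-coding transcripts and 12 to 37 with 1 library left out, against 135. With the replicate number as a block edgeR called 0 genes, with 2163 at an unadjusted p under 0.05, and LAMB2 had -0.41 (adjusted p = 0.222). Same-numbered libraries correlated at 0.111, 0.0109 and 0.0164 in their deviations from the group means, and unlike-numbered ones at -0.0892 to 0.0791. Since not every same-numbered value was over 0.1, a limit set here, the numbers were not taken to pair the libraries. These values do not settle whether the repeats were paired. The study notes that its repeats may have used cells of unlike generations.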

Other observations

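For each chain the genes whose log2 CPM followed it most closely over the 6 libraries are given as a description, with Pearson's r. They share libraries and scaling, and they are the 2 highest of 13750 genes for each chain, with the members and the genes that overlap that chain left out. LAMB2 was followed by DGLUCY (0.990) and the pseudogene BTF3L4P2 (0.990), LAMC1 by OAS3 (0.997) and RHOA (0.996), LAMA5 by RPP25L (0.992) and CRTC3 (0.977), LAMB1 by SNF8 (0.988) and PPP1CB (0.979), LAMB3 by DLD (0.990) and CBFA2T2 (0.974), and LAMA3 by CCHCR1 (0.988) and INPP5A (0.981).

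The LAMA3 short form rests on at most 55 counts in a library. It was under the filter on low counts and was not tested. Over the 40545 transcripts of the simulated counts, at all levels of expression above the filter, edgeR called 0% of the ones given a log2 change of 2. Those changes were given to whole groups, so the simulation does not cover the short form.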
